A study of Caenorhabditis elegans with 9 samples.

Results

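Embryos depleted of the ubiquitin-like modifier SUMO were set directly against embryos that had lost SDC-2, the protein that starts dosage compensation, in the nematode Caenorhabditis elegans. The comparison uses 6 of the 9 arrays of the study, 3 per group, and 17118 genes. Each gene was read by 1 Affymetrix probe set, the brightest over the 9 arrays among probe sets annotated to exactly 1 gene (20766 of 22625, with 20701 matched in RefSeq). The smo-1 RNAi embryos came from N2 (wild-type) XX mothers fed bacteria that make double-stranded RNA against smo-1, the single SUMO gene of this animal. The sdc-2(y93)+RNAi embryos came from XX mothers carrying the sdc-2 allele y93 and are labelled as grown on bacteria with sdc-2 RNAi, although the growth protocol describes a feeding plasmid for smo-1 only. Mothers of both groups were kept as larvae for 24 hours on HB101 bacteria and then for 72 hours on RNAi plates. Control embryos, which lend a level to compare with, came from N2 mothers that spent 96 hours on plates with the empty vector L4440. All were grown at 20 °C, all embryos were of mixed stages, and whole embryos were extracted together, so fewer cells of a type and less RNA per cell cannot be told apart. Whether replicates were cultured separately is not stated in the labels. The p-values thus reflect how far these samples vary, and that variation may be technical.

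SUMO is a small protein joined to lysines of other proteins by a chain of enzymes and removed by ULP proteases. Its targets in C. elegans include chromatin and transcription regulators and subunits of the dosage compensation complex. That complex contains a condensin, is brought to both X chromosomes of XX embryos by SDC-2, and lowers transcription from them. SDC-2 and its partners also silence her-1, a male-determining gene on an autosome, so that loss of sdc-2 frees both X-linked genes and her-1. Upstream, X signal elements such as fox-1, sex-1 and ceh-39 hold down xol-1, the switch gene for male fate. The question posed here is which functions separate the loss of SUMO from the loss of X repression.

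Values below are log2 levels made by RMA, in which 1 unit is a 2-fold change and dim genes are compressed. Differences are smo-1 RNAi minus sdc-2(y93)+RNAi, given with the standard error of the limma fit over all 9 arrays. A gene is called where the limma p-value, adjusted over all 17118 genes, is under 0.05.

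The targeted genes came first. In smo-1 RNAi embryos smo-1 read 7.91, 8.21 and 8.66, against 10.96, 10.74 and 10.94 in sdc-2(y93)+RNAi embryos and 11.96, 11.79 and 12.04 in control embryos. It was 6.16-fold lower in smo-1 RNAi (log2 -2.62 ± 0.17, limma adjusted p = 1.1e-06), and the 3 groups did not overlap. The comparison group was thus not at the control level of this gene. Its mean lay 2.07-fold below control (-1.05 ± 0.17, limma adjusted p = 0.00094), and that of smo-1 RNAi 12.7-fold below (-3.67 ± 0.17). Why the level was lowered in the comparison group was not tested. For sdc-2 the brighter probe set read 9.62, 9.31 and 9.86 in smo-1 RNAi embryos, 9.09, 9.58 and 9.43 in sdc-2(y93)+RNAi embryos and 9.74, 9.60 and 9.80 in control embryos. These arrays overlapped and the difference did not pass (0.23 ± 0.16, limma adjusted p = 0.31). A dimmer sdc-2 probe set, of a kind open to related transcripts, had means of 8.36 in smo-1 RNAi, 7.65 in sdc-2(y93)+RNAi and 9.03 in control embryos (difference 0.70 ± 0.10, limma adjusted p = 0.00021 over all probe sets). The messenger of her-1, which SDC-2 silences, read 7.53, 7.75 and 7.60 in smo-1 RNAi embryos, 9.78, 9.73 and 9.84 in sdc-2(y93)+RNAi embryos and 7.5, 7.19 and 7.24 in control embryos. The 3 groups did not overlap: smo-1 RNAi lay slightly above control (0.32 ± 0.10, limma adjusted p = 0.032) and sdc-2(y93)+RNAi far above both. The level in smo-1 RNAi was 4.47-fold below that in sdc-2(y93)+RNAi (-2.16 ± 0.10, limma adjusted p = 2.5e-07).

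Array-wide facts bear on every value that follows. Arrays correlated at 0.993 to 0.995 within smo-1 RNAi and 0.984 to 0.993 within sdc-2(y93)+RNAi, and at 0.943 to 0.955 between these groups. Bacterial and phage hybridisation controls were at 4.95 to 5.70 on average on smo-1 RNAi arrays, 7.03 to 12.32 on sdc-2(y93)+RNAi arrays and 5.10 to 5.60 on control arrays. A difference in array handling and the sdc-2(y93)+RNAi group therefore cannot be told apart. The log2 ratio of 3′ to 5′ probe sets, which reflects RNA integrity and labelling, differed by -0.78 for GAPDH and 0.95 for catalase (exact two-sided permutation p = 0.1 each, the smallest that 3 against 3 allows), by -0.15 for actin (exact p = 0.4) and by -0.02 for ubiquitin (exact p = 0.9). The part of either in the results was not tested. The arrays' number limits the precision of every value.

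Of the 17118 genes, 6101 (35.6%) were called, 3154 higher in smo-1 RNAi (18.4%) and 2947 lower (17.2%). By 2-fold or more, 1075 were higher (6.28%) and 475 lower (2.77%), or 1550 in either direction (9.05%). Among the 8559 genes above the median level, 25.2% were called higher and 30.8% lower, and lists of well-expressed genes are read against these shares. The split depended on the scaling: 51.7% of calls were higher with the deposited values, and 25.9% after centring every array on autosomal genes (2236 higher and 6405 lower). Centring on autosomal genes moved the median of all genes to -0.21, against -0.01 as deposited, and moved the difference of every gene by the same amount. Centring on only those autosomal genes brighter than the median gave 2742 higher and 3436 lower, and another quantile normalization 2795 higher and 3408 lower.

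The gene that differed most was trf-2. It read 11.47, 12.36 and 11.89 in smo-1 RNAi embryos, against 5.18, 5.54 and 5.42 in sdc-2(y93)+RNAi embryos and 5.37, 5.23 and 5.22 in control embryos. That is a 92.0-fold difference (6.52 ± 0.19, limma adjusted p = 1e-08) with the sdc-2(y93)+RNAi and control arrays below the median level of all genes, 6.65. The next was X-linked F14H12.3, at 11.29, 11.48 and 11.36 in smo-1 RNAi embryos, 6.24, 6.86 and 6.51 in sdc-2(y93)+RNAi embryos and 5.77, 5.69 and 5.81 in control embryos (4.84 ± 0.14). Its probe set is of a kind open to related transcripts, as are those of hpo-26 (3.96 ± 0.09) and nspe-7 (3.79 ± 0.22) among the 12 highest genes. The others were C40A11.8 (4.42 ± 0.13), spi-2, named as a serine protease inhibitor (4.12 ± 0.10), srlf-35 (3.88 ± 0.08), Y65B4A.7 (3.85 ± 0.17), irg-5, an infection response gene (3.85 ± 0.22), F37D6.3 (3.81 ± 0.12), Y37H2A.12 (3.71 ± 0.22) and pqn-31 (3.67 ± 0.22). Most of these 12 were near control in sdc-2(y93)+RNAi embryos: only nspe-7 differed from control by more than 1 there (1.75).

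The lowest genes after smo-1 were of several kinds. The zinc-finger gene zfp-3 (-2.31 ± 0.22), the cyclin D gene cyd-1 (-2.45 ± 0.17) and mom-1, the Porcupine homologue needed to make Wnt signals (-2.26 ± 0.08), lay below control in smo-1 RNAi and above it in sdc-2(y93)+RNAi embryos. For zfp-3 this rests on the brightest probe set, since 4 others gave -0.04, -0.35, -0.43 and -0.92, the first with a limma adjusted p of 0.9. For cyd-1 a second probe set gave -1.21, with sdc-2(y93)+RNAi embryos near control (8.91 against 8.97). On single arrays mom-1, which is X-linked, read 6.86, 6.91 and 6.85 in smo-1 RNAi, 9.14, 9.10 and 9.17 in sdc-2(y93)+RNAi and 7.35, 7.27 and 7.41 in control embryos. The 3 groups of mom-1 arrays were apart from one another with little spread within each. F52D2.7, also on X, read 7.57, 7.78 and 7.61 in smo-1 RNAi, 9.84, 9.98 and 10.02 in sdc-2(y93)+RNAi and 7.69, 7.45 and 7.69 in control embryos (-2.30 ± 0.10). Only its sdc-2(y93)+RNAi arrays stood apart. K01D12.1 (-2.61 ± 0.29) and C30E1.9 (-2.49 ± 0.19) were lower than control in both groups and more so in smo-1 RNAi, with differences from control of -3.88 and -3.28 in smo-1 RNAi and -1.27 and -0.79 in sdc-2(y93)+RNAi embryos. The remaining low genes were M03D4.4 (-2.26 ± 0.13), oac-51, of the O-acyltransferase homologues (-2.18 ± 0.21), gadr-3 (-2.12 ± 0.12) and C40A11.6 (-2.09 ± 0.10). Probe sets of cyd-1 and mom-1 are of a kind open to related transcripts.

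**Figure D1:**
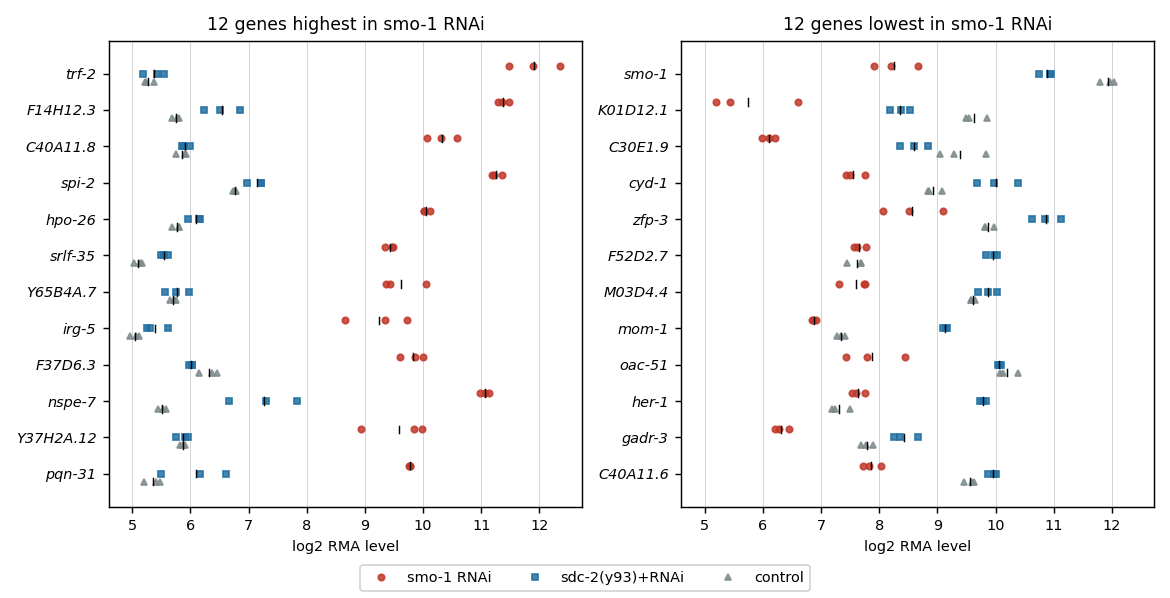
Log2 RMA level (x axis) on each array of the 12 genes highest and the 12 genes lowest in smo-1 RNAi against sdc-2(y93)+RNAi, among called genes whose arrays do not overlap. Circles, squares and triangles are single smo-1 RNAi, sdc-2(y93)+RNAi and control arrays, and black ticks are group means of 3 arrays. The high genes sit near control in sdc-2(y93)+RNAi embryos, with nspe-7 the farthest from it, while the low genes include some where only sdc-2(y93)+RNAi stands apart, such as F52D2.7.

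Genes whose group means fell on opposite sides of all 3 control arrays numbered 876 among the higher (5.12% of all genes) and 1023 among the lower (5.98%). The 6 with the largest higher difference were F37D6.3, F42A10.7 (3.62 ± 0.27), the P granule helicase gene glh-1 (3.58 ± 0.18), nspe-1 (3.58 ± 0.20), the lipase-related gene lips-6 (3.55 ± 0.22) and F20B10.3 (3.33 ± 0.13). Those with the largest lower difference were cyd-1, zfp-3, M03D4.4, mom-1, gadr-3 and C40A11.6. For 323 of the higher and 446 of the lower genes every array of each group lay on its own side of all control arrays. Both comparisons with control use the same 3 control arrays. Sides of control are those of the brightest probe set of each gene. Other probe sets of some genes placed both groups below control.

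**Figure D2:**
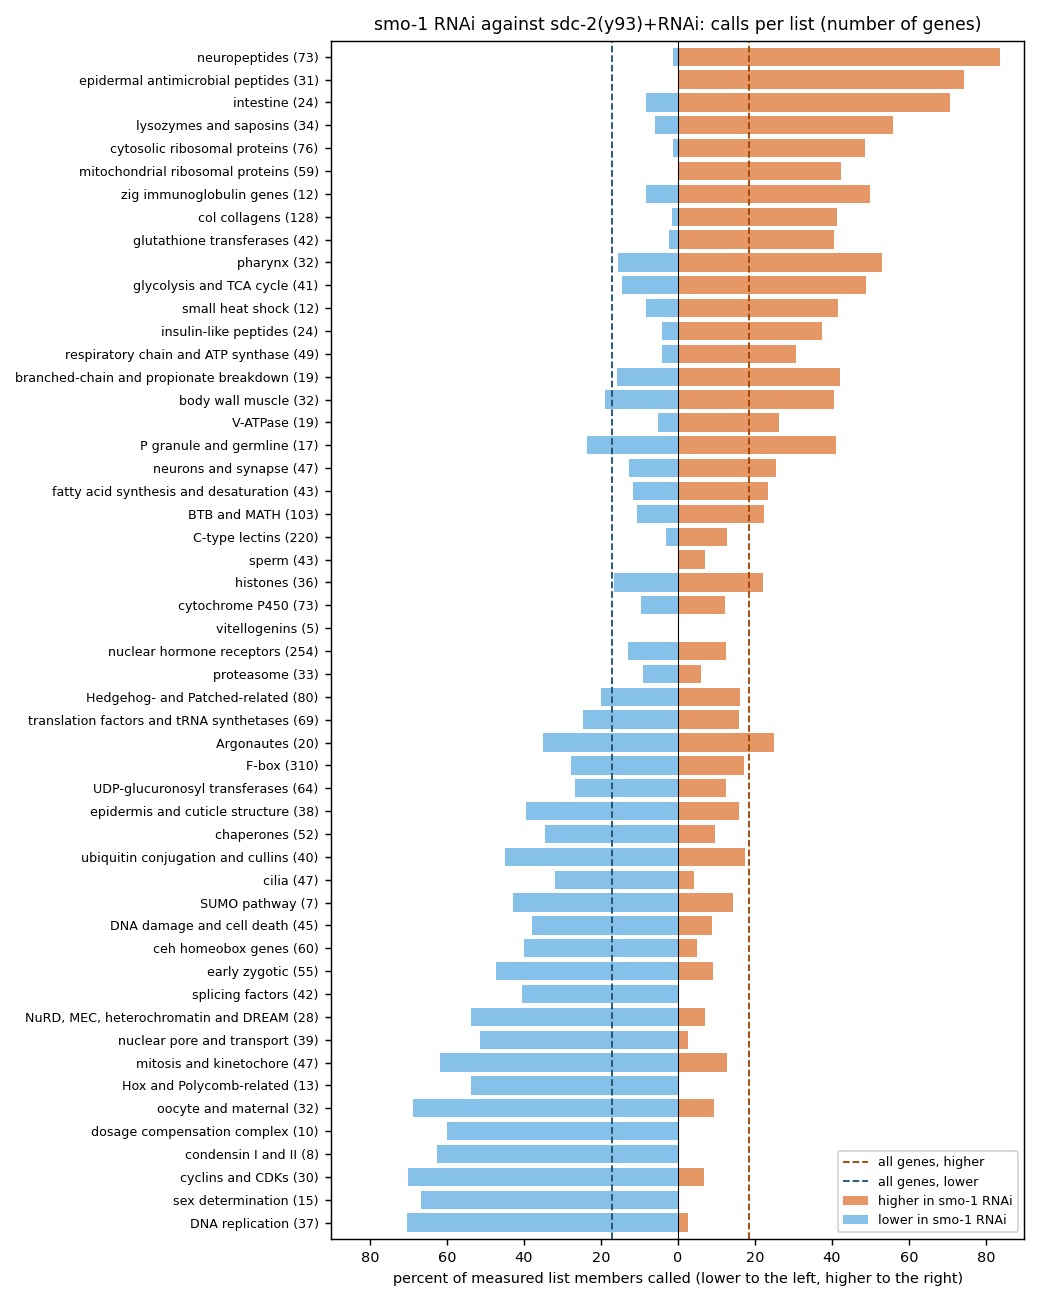
Percent of measured members of each list (x axis; number of genes in brackets) called higher in smo-1 RNAi, to the right, or lower, to the left, at a limma adjusted p of 0.05. Dashed lines mark the shares over all 17118 genes, 18.4% higher and 17.2% lower. Neuropeptides, epidermal antimicrobial peptides and intestine genes stand at the top, and DNA replication, sex determination and cyclin genes at the bottom.

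Secreted neuropeptides were the list with the largest share of higher genes among the 52 described. Of 73 flp and nlp genes, which encode FMRFamide-like and other signalling peptides, 61 were higher in smo-1 RNAi and 1 lower (83.6% higher), with a median difference of 1.1. The median difference from control was 1.25 in smo-1 RNAi and 0.08 in sdc-2(y93)+RNAi embryos. Among the members, flp-3 read 8.29, 8.61 and 8.58 in smo-1 RNAi embryos, against 6.10, 5.92 and 6.21 in sdc-2(y93)+RNAi embryos and 5.82, 6.0 and 5.95 in control embryos (2.42 ± 0.12, limma adjusted p = 2.4e-07). For nlp-40 the levels were 9.81, 10.54 and 10.28 in smo-1 RNAi, 7.61, 7.29 and 7.51 in sdc-2(y93)+RNAi and 7.66, 7.60 and 7.67 in control embryos (2.74 ± 0.16, limma adjusted p = 7.6e-07, from a probe set open to related transcripts). In both genes only smo-1 RNAi stood well apart, since sdc-2(y93)+RNAi embryos differed from control by 0.15 for flp-3 and -0.17 for nlp-40. The difference held on both kinds of chromosome: 22 of 28 X-linked and 39 of 45 autosomal neuropeptide genes were higher. The lower gene, named after its values were seen, was nlp-60 (-0.45 ± 0.15), and it was not called without any 1 smo-1 RNAi array, or without sdc-2(y93)+RNAi replicate 2 or 3. The summed level of the list lay between 14.78 and 15.08 on smo-1 RNAi arrays, 13.59 and 13.81 on sdc-2(y93)+RNAi arrays and 13.35 and 13.76 on control arrays.

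Enzymes that cut these peptides from their precursors were higher too. The proprotein convertase gene egl-3 read 11.71, 11.68 and 11.58 in smo-1 RNAi, 9.81, 10.10 and 9.92 in sdc-2(y93)+RNAi and 9.47, 9.93 and 9.33 in control embryos (1.71 ± 0.15, limma adjusted p = 8.7e-06). The carboxypeptidase gene egl-21 was higher by 1.76 ± 0.12. Both belong to the list of neurons and synapse, in which 12 of 47 genes were higher and 6 lower, shares of 25.5% and 12.8%. Of the 47, 40 lay above the median level, where 25.2% of all genes were higher, so the higher share is near that one. The median of the list, 0.12 as deposited, turned to -0.08 with centring on autosomal genes. The touch-neuron tubulin gene mec-12 (1.35 ± 0.14) and tubulin acetyltransferase gene mec-17 (1.59 ± 0.16) were among the higher. Of single members chosen after their values were seen, unc-25, for GABA synthesis (1.2 ± 0.16), cha-1 (0.93 ± 0.13) and unc-17 (0.81 ± 0.14), for acetylcholine synthesis and loading, were higher, the last pair read by probe sets open to related transcripts. Other transmitter genes of the list were not called: unc-47 (0.38), eat-4 (0.61), cat-1 (0.48), cat-2 (-0.05), tph-1 (-0.04) and tdc-1 (-0.27). The broad vesicle gene rab-3 was at 11.14, 10.77 and 11.14 in smo-1 RNAi and 10.77, 11.06 and 10.95 in sdc-2(y93)+RNAi embryos, which overlap (0.09 ± 0.18, limma adjusted p = 0.75). Of the 6 lower genes, named after their values were seen, 4 encode transcription factors: unc-3 (-0.88 ± 0.14), cnd-1 (-0.78 ± 0.22), ngn-1 (-0.75 ± 0.12) and hlh-14 (-0.71 ± 0.25). Further transcription factor genes of the list, unc-4, unc-30, unc-86, ttx-3, lim-4 and mec-3, were not among the lower. The other lower genes were unc-104 (-0.59), a synaptic vesicle kinesin gene, and unc-18 (-0.41), of vesicle release. Without smo-1 RNAi replicate 2 the number of lower genes was 2. Immunoglobulin genes of the zig family, most of them secreted by neurons, gave 6 higher of 12 and 1 lower, with zig-4 (2.28 ± 0.13) and zig-3 (1.66 ± 0.10) leading. Insulin-like peptide genes gave 9 higher of 24 and 1 lower, led by ins-30 (2.29 ± 0.13) and ins-17 (2.23 ± 0.20). Without sdc-2(y93)+RNAi replicate 1, 2 were lower. Their median of 0.19 turned to -0.01 with centring on autosomal genes.

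Genes for antimicrobial peptides of the epidermis were the next list by share. Of 31 nlp, cnc, fip and fipr genes 23 were higher in smo-1 RNAi and 0 lower (74.2% higher), with a median difference of 1.23. Against control the median was 1.37 in smo-1 RNAi and 0.15 in sdc-2(y93)+RNAi embryos. The gene fipr-2 read 10.12, 9.68 and 10.33 in smo-1 RNAi, 7.27, 7.40 and 7.33 in sdc-2(y93)+RNAi and 5.76, 6.07 and 5.79 in control embryos (2.71 ± 0.15, limma adjusted p = 6.2e-07). In nlp-28 the levels were 10.27, 9.80 and 9.92 in smo-1 RNAi, 7.21, 7.68 and 7.68 in sdc-2(y93)+RNAi and 6.76, 6.63 and 6.61 in control embryos (2.47 ± 0.15). Both genes were above control in both groups, and smo-1 RNAi arrays stood above all others. X-linked fip-5 (2.05 ± 0.09) and fipr-21 (2.36 ± 0.11) followed the same order. The probe sets of nlp-28, fip-5 and fipr-21, and of 19 of the 31 genes in all, may bind related transcripts, and their values may mix several genes. Lysozyme and saposin-like genes, whose products attack bacteria, gave 19 higher of 34 and 2 lower, with a median of 0.66. Here lys-3 read 9.06, 8.96 and 9.19 in smo-1 RNAi, 5.67, 6.32 and 5.98 in sdc-2(y93)+RNAi and 5.47, 5.36 and 5.16 in control embryos (3.08 ± 0.15, limma adjusted p = 2.8e-07). It was followed by ilys-3 (2.72 ± 0.16), lys-8 (2.54 ± 0.12) and lys-10 (1.76 ± 0.10). Of 220 C-type lectin genes 28 were higher and 7 lower (12.7% and 3.18%), and 23 and 82 with centring on autosomal genes; 30 of the 220 were above the median level. The number lower was 17 without sdc-2(y93)+RNAi replicate 2 and 11 without replicate 3. The largest difference among the named lectins was that of clec-150 (3.26 ± 0.18).

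**Figure D3:**
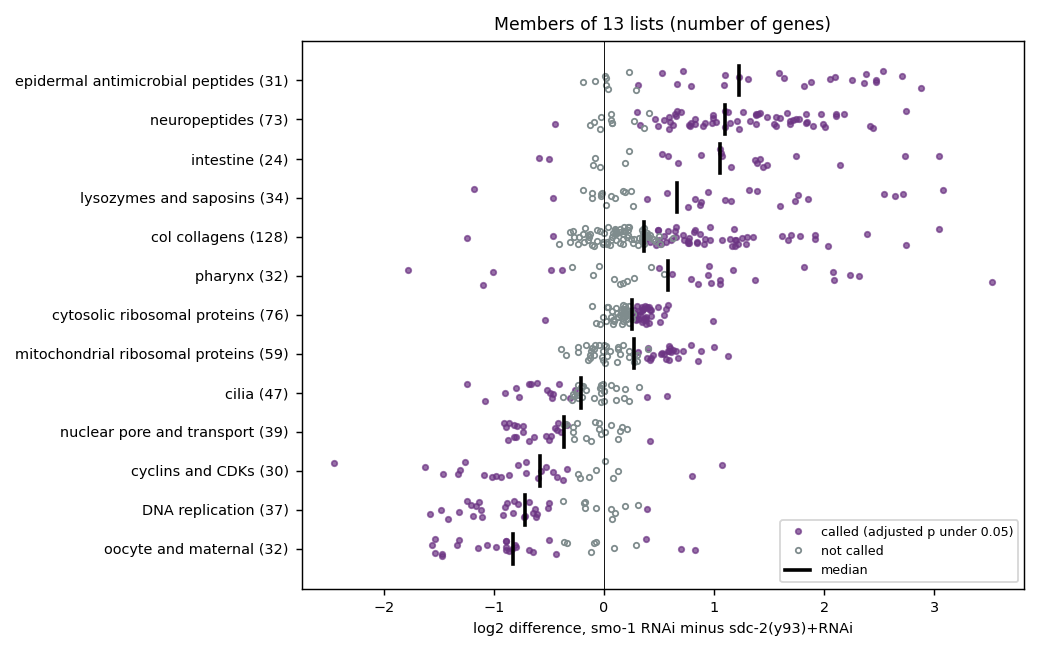
Log2 difference, smo-1 RNAi minus sdc-2(y93)+RNAi (x axis), of each measured member of 13 lists, with the number of genes in brackets. Filled points are called genes, open points are not called, and the bar is the list median. Medians run from 1.23 for epidermal antimicrobial peptides to -0.83 for oocyte and maternal genes, and ribosomal genes lie in a narrow band near 0.25.

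Gut genes were higher in smo-1 RNAi as well. Of 24 intestine genes 17 were higher and 2 lower (70.8% and 8.33%), with a median of 1.05. The counts were 17 and 2 under each scaling and without any single array. The protease gene cpr-4 read 12.22, 12.25 and 11.96 in smo-1 RNAi, 9.30, 8.97 and 9.03 in sdc-2(y93)+RNAi and 7.32, 7.87 and 7.31 in control embryos (3.04 ± 0.16, limma adjusted p = 4e-07). A second cathepsin gene, cpr-1, was higher by 2.73 ± 0.10, the aspartyl protease gene asp-6 by 1.74 ± 0.14 and the gut intermediate filament gene ifb-2 by 1.44 ± 0.10. For ifb-2 the levels were 11.55, 11.42 and 11.52 in smo-1 RNAi, 10.00, 10.06 and 10.12 in sdc-2(y93)+RNAi and 10.23, 10.39 and 10.07 in control embryos, so that only smo-1 RNAi stood apart. The lower genes of this list, named after their values were seen, were elt-2, the factor that drives gut differentiation (-0.59 ± 0.16, limma adjusted p = 0.013), and erm-1, an organiser of the lumen membrane (-0.50 ± 0.12).

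The pharynx list also held structural genes on the higher side and regulators on the lower side. Of 32 genes 17 were higher and 5 lower (53.1% and 15.6%), with a median of 0.58. The gene abu-10, of a family found in the pharyngeal cuticle, read 11.71, 11.81 and 11.67 in smo-1 RNAi, 7.81, 8.60 and 8.22 in sdc-2(y93)+RNAi and 8.83, 8.82 and 8.01 in control embryos (3.52 ± 0.23, limma adjusted p = 1.5e-06). The smo-1 RNAi arrays stood apart and the others overlapped. A dim second probe set of abu-10 gave -0.03 (limma adjusted p = 0.85). Higher too were abu-8 (2.32 ± 0.19), phat-8 (2.08 ± 0.13) and phat-6 (1.82 ± 0.11), and, chosen after their values were seen, the pharyngeal myosin genes myo-2 (1.17 ± 0.16) and myo-1 (0.97 ± 0.20). The 5 lower genes, also named after their values were seen, were ceh-22, a homeobox gene of pharyngeal muscle (-1.78 ± 0.19), eya-1 (-1.1 ± 0.11), the pharynx organ identity gene pha-4 (-1.01 ± 0.12), ceh-34 (-0.48) and abu-13 (-0.38). On single arrays pha-4 read 9.36, 9.08 and 9.14 in smo-1 RNAi, 10.33, 10.27 and 10.01 in sdc-2(y93)+RNAi and 10.34, 10.15 and 10.12 in control embryos. Here only the smo-1 RNAi arrays stood apart.

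Body wall muscle was mixed. Of 32 genes 13 were higher and 6 lower, with a median of 0.11 that turned to -0.09 with centring on autosomal genes. Sarcomere genes led the higher side: the troponin T gene tnt-2 (1.97 ± 0.15), the troponin I gene unc-27 (1.16 ± 0.11), the myosin heavy chain gene unc-54 (1.07 ± 0.09) and the troponin C gene pat-10 (0.80 ± 0.08). The muscle regulator hlh-1, chosen after its values were seen, was lower (-0.42 ± 0.14, limma adjusted p = 0.032), at 6.63, 6.69 and 6.56 in smo-1 RNAi, 7.19, 6.77 and 7.19 in sdc-2(y93)+RNAi and 8.09, 8.02 and 8.40 in control embryos. The level of hlh-1 lay below control in both groups. The lower genes besides hlh-1, not named here, belong to the structural, attachment and associated genes of the list, so such genes went both ways.

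The epidermis gave a split between the col collagens and a list of epidermis and cuticle structure genes. That list itself holds collagens with dpy, sqt, rol and bli names, whose directions are not given here, so the split is not one of collagens against other genes. Of 128 col collagen genes 53 were higher and 2 lower (41.4% and 1.56%), with a median of 0.36, and 5 were lower without sdc-2(y93)+RNAi replicate 2. The gene col-163 read 7.99, 8.09 and 8.21 in smo-1 RNAi, 4.96, 5.30 and 4.93 in sdc-2(y93)+RNAi and 5.09, 5.04 and 4.86 in control embryos (3.04 ± 0.12, limma adjusted p = 5.9e-08). It was followed by col-103 (2.74 ± 0.19), col-113 (1.92 ± 0.13) and col-48 (1.92 ± 0.15), the last below control in sdc-2(y93)+RNAi embryos (-1.18). By contrast 15 of 38 epidermis and cuticle structure genes were lower and 6 higher, with a median of -0.09. The epidermal fate gene lin-26 read 10.79, 10.44 and 10.99 in smo-1 RNAi, from 11.84 to 12.08 in sdc-2(y93)+RNAi and 11.49, 11.46 and 11.46 in control embryos (-1.23 ± 0.13, limma adjusted p = 3.9e-05), with the groups on opposite sides of control. A dimmer lin-26 probe set put both groups below control, with means of 8.75 in smo-1 RNAi, 9.67 in sdc-2(y93)+RNAi and 10.03 in control embryos (-0.93 ± 0.16). Also lower were fbn-1, of the apical matrix that holds the embryo's shape (-1.06 ± 0.12), lpr-3 (-0.92 ± 0.08) and noah-2 (-0.86 ± 0.09). Without smo-1 RNAi replicate 1, or without sdc-2(y93)+RNAi replicate 3, 3 genes of this list were higher in place of 6. Hedgehog- and Patched-related genes, secreted or membrane proteins used mostly by the epidermis, divided into 13 higher and 16 lower of 80. Of these grl-21 was far above control in both groups, at 12.45, 12.33 and 12.43 in smo-1 RNAi and 10.39, 10.28 and 10.43 in sdc-2(y93)+RNAi, against 6.64, 6.48 and 6.35 in control embryos (2.04 ± 0.10, limma adjusted p = 2.2e-07). Ciliary genes were lower in 15 of 47 and higher in 2 (31.9% and 4.26%), with a median of -0.21. Of the 47, 30 lay above the median level, where 30.8% of all genes were lower, so the lower share is near that one. The first by adjusted p were dyf-7 (-0.90 ± 0.10), osm-5 (-1.08 ± 0.15) and nphp-1 (-1.25 ± 0.17).

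Genes of the cell cycle ran the other way. Of 37 DNA replication genes 26 were lower in smo-1 RNAi and 1 higher (70.3% and 2.70%), with a median of -0.72, and 36 of the 37 lay above the median level. Without smo-1 RNAi replicate 1, 2 genes were higher. The helicase gene mcm-3 read 8.39, 8.30 and 8.09 in smo-1 RNAi, 9.79, 9.52 and 9.91 in sdc-2(y93)+RNAi and 9.41, 9.26 and 9.68 in control embryos (-1.48 ± 0.14, limma adjusted p = 1.8e-05). The polymerase epsilon gene pole-1 read 9.07, 8.75 and 8.79 in smo-1 RNAi, 10.45, 10.19 and 10.24 in sdc-2(y93)+RNAi and 9.51, 9.31 and 9.79 in control embryos (-1.42 ± 0.14). For both genes the smo-1 RNAi arrays were below every other array, and pole-1 stood above control in sdc-2(y93)+RNAi embryos. The other helicase genes mcm-5 (-1.21 ± 0.14) and mcm-7 (-1.14 ± 0.11) were lower too. Probe sets of all 4 named replication genes are of kinds open to related transcripts. Medians of this list against control were -0.83 in smo-1 RNAi and -0.14 in sdc-2(y93)+RNAi embryos.

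Cyclins and their kinases gave 21 lower of 30 and 2 higher, with a median of -0.58. The cyclin D gene cyd-1 read 7.76, 7.49 and 7.42 in smo-1 RNAi, 9.97, 10.38 and 9.68 in sdc-2(y93)+RNAi and 9.08, 8.83 and 8.86 in control embryos. The cyclin A gene cya-1 read 9.70, 9.86 and 9.99 in smo-1 RNAi, 11.21, 11.18 and 11.15 in sdc-2(y93)+RNAi and 10.39, 10.15 and 10.39 in control embryos (-1.33 ± 0.10, limma adjusted p = 4.5e-06). With these probe sets both had smo-1 RNAi arrays below and sdc-2(y93)+RNAi arrays above all control arrays. A second cyd-1 probe set had means of 7.70 in smo-1 RNAi, 8.91 in sdc-2(y93)+RNAi and 8.97 in control embryos. Its difference was -1.21 ± 0.22, with sdc-2(y93)+RNAi embryos near control. The phosphatase gene cdc-25.2 (-1.09 ± 0.11) was near control in sdc-2(y93)+RNAi embryos (-0.04). The 2 higher genes, named after their values were seen, were cya-2 (1.07 ± 0.13) and cdk-14 (0.80 ± 0.15), both read by probe sets open to related transcripts.

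Mitosis and kinetochore genes were lower in 29 of 47 and higher in 6, with a median of -0.53. The Polo kinase gene plk-1 read 10.53, 10.54 and 10.61 in smo-1 RNAi, 11.72, 11.63 and 11.78 in sdc-2(y93)+RNAi and 11.29, 11.12 and 11.37 in control embryos (-1.15 ± 0.09, limma adjusted p = 5.6e-06). The kinetochore scaffold gene knl-1 (-1.08 ± 0.11) and the cytokinesis kinesin gene zen-4 (-0.98 ± 0.08) were also on opposite sides of control with their brighter probe sets. Dimmer probe sets put both groups below control. Their means in smo-1 RNAi, sdc-2(y93)+RNAi and control embryos were 8.28, 9.16 and 9.53 for knl-1 and 10.04, 10.95 and 11.06 for zen-4. The centrosome scaffold gene spd-5 was higher (1.44 ± 0.12), but another probe set of it gave -0.30 (limma adjusted p = 0.41 over probe sets not of a related kind). The count of 6 higher genes was 2 or 3 without any of the 3 smo-1 RNAi arrays or without sdc-2(y93)+RNAi replicate 3. Nuclear pore and transport genes gave 20 lower of 39 and 1 higher, with a median of -0.36, among them npp-5 (-0.91 ± 0.11) and xpo-3 (-0.87 ± 0.10). The single higher gene was not called without 7 of the 9 arrays in turn, control replicate 2 and sdc-2(y93)+RNAi replicate 3 being the exceptions. DNA damage and cell death genes gave 17 lower of 45 and 4 higher (0 to 2 higher without smo-1 RNAi replicate 2 or 3, or sdc-2(y93)+RNAi replicate 1 or 2), with the checkpoint and repair genes msh-2 (-0.99 ± 0.12) and mre-11 (-0.99 ± 0.11; another probe set gave -0.06, limma adjusted p = 0.8) and the cell death genes ced-9 (-0.97 ± 0.10) and ced-4 (-0.84 ± 0.10) named. Splicing factors gave 17 lower of 42 and 0 higher (1 higher without sdc-2(y93)+RNAi replicate 3), and prp-39 was the first of them by adjusted p (-1.29 ± 0.17).

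Markers of early embryos differed with these lists. Of 32 oocyte and maternal genes 22 were lower and 3 higher (68.8% and 9.38%), with a median of -0.83. The summed level of this list lay between 14.48 and 14.60 on smo-1 RNAi arrays, 15.16 and 15.34 on sdc-2(y93)+RNAi arrays and 14.64 and 14.82 on control arrays. Thus the smo-1 RNAi arrays were below control and the sdc-2(y93)+RNAi arrays above it. The germline polarity gene mex-6 read 9.54, 9.65 and 9.71 in smo-1 RNAi, 11.22, 11.09 and 11.28 in sdc-2(y93)+RNAi and 10.27, 9.88 and 10.37 in control embryos (-1.56 ± 0.13, limma adjusted p = 6.1e-06). The translational repressor gene gld-1 read 9.60, 9.55 and 9.63 in smo-1 RNAi, 10.54, 10.55 and 10.63 in sdc-2(y93)+RNAi and 9.80, 9.58 and 9.77 in control embryos (-0.98 ± 0.09). The oocyte maturation gene oma-1 (-1.47 ± 0.15) and the kinase gene mbk-2 of the oocyte-to-embryo transition (-0.81 ± 0.08) were lower too. In gld-1 the sdc-2(y93)+RNAi arrays stood apart and the others touched, while in mex-6 all 3 groups were apart.

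Early zygotic genes gave 26 lower of 55 and 5 higher, with a median of -0.30. Their summed level lay between 13.25 and 13.37 in smo-1 RNAi, 14.18 and 14.20 in sdc-2(y93)+RNAi and 13.77 and 14.02 in control embryos. The Caudal homologue pal-1 read 10.04, 9.88 and 10.13 in smo-1 RNAi, 11.35, 11.50 and 11.55 in sdc-2(y93)+RNAi and 10.88, 10.72 and 10.75 in control embryos (-1.45 ± 0.10, limma adjusted p = 1.9e-06). With it went vet-1 (-2.0 ± 0.14), sdz-25 (-1.94 ± 0.12) and elt-1, the GATA factor of the epidermis (-1.3 ± 0.09). With these probe sets all 4 lay on opposite sides of control, elt-1 in sdc-2(y93)+RNAi embryos by only 0.22 (limma adjusted p = 0.13). Other probe sets of pal-1 put both groups below control. Their means in smo-1 RNAi, sdc-2(y93)+RNAi and control embryos were 7.70, 8.49 and 9.05, and 8.03, 9.08 and 9.20. The endoderm-specifying genes end-1 and end-3, chosen after their values were seen, did not pass (-0.06 ± 0.14 and 0.19 ± 0.14, limma adjusted p = 0.80 and 0.36). Whether another mix of embryo ages has a part in the tissue and cell cycle differences was not tested. Carried-over maternal tissue was read by 5 vitellogenin genes, 0 of which were called (1 higher without sdc-2(y93)+RNAi replicate 1) and 0 of which lay above the median level, and by 43 sperm genes, 3 of them higher, 0 lower (3 lower without sdc-2(y93)+RNAi replicate 2) and 1 above the median level. The sperm median of 0.01 turned negative under each other scaling.

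Germline granule genes divided by gene. Of 17 members 7 were higher and 4 lower, with a median of 0.14 that turned to -0.06 with centring on autosomal genes. The Vasa-like helicase gene glh-1 read 11.65, 11.64 and 11.94 in smo-1 RNAi, 8.39, 7.69 and 8.41 in sdc-2(y93)+RNAi and 8.17, 8.30 and 8.36 in control embryos (3.58 ± 0.18, limma adjusted p = 2.7e-07, from a probe set open to related transcripts). Only smo-1 RNAi stood apart. The translation factor gene ife-1 was higher by 1.07 ± 0.13. The granule assembly genes meg-3 (-1.61 ± 0.14) and meg-1 (-1.46 ± 0.13), both on X, were lower and on opposite sides of control. Argonautes and their RNA polymerases, which act in small-RNA silencing, gave 5 higher and 7 lower of 20, with a median of 0.08 that turned to -0.12 with centring on autosomal genes. The gene csr-1, a germline Argonaute, read 9.20, 9.70 and 9.30 in smo-1 RNAi, 6.84, 6.17 and 6.91 in sdc-2(y93)+RNAi and 6.62, 6.67 and 6.80 in control embryos (2.76 ± 0.19, limma adjusted p = 2.1e-06). It was higher with ppw-2 (1.57 ± 0.10), while the nuclear Argonaute gene nrde-3 (-1.51 ± 0.14) and ergo-1 (-1.23 ± 0.14) were lower. The centromeric histone paralogue cpar-1 (2.33 ± 0.10) and the linker histone gene hil-1 (1.25 ± 0.09) headed a histone list with 8 higher and 6 lower of 36.

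In the lists of sex determination and dosage compensation no gene was called higher in smo-1 RNAi. Of 15 sex determination genes 10 were lower and 0 higher (66.7% lower), with a median of -0.56. Against control the median was -0.12 in smo-1 RNAi and 0.43 in sdc-2(y93)+RNAi embryos. The X signal element fox-1, an RNA-binding protein gene, read 8.55, 8.38 and 9.04 in smo-1 RNAi, 10.43, 10.79 and 10.48 in sdc-2(y93)+RNAi and 9.47, 9.37 and 9.35 in control embryos (-1.91 ± 0.16, limma adjusted p = 8.2e-06). The homeobox X signal element ceh-39 read 10.09, 9.57 and 9.81 in smo-1 RNAi, 11.25, 11.43 and 11.17 in sdc-2(y93)+RNAi and 9.99, 9.95 and 9.91 in control embryos (-1.46 ± 0.13). The nuclear receptor gene sex-1 was also lower (-1.23 ± 0.11). In fox-1 and sex-1 smo-1 RNAi lay below and sdc-2(y93)+RNAi above control, and with the brightest ceh-39 probe set the smo-1 RNAi arrays overlapped control. Dimmer ceh-39 probe sets put smo-1 RNAi below control. Their means were 7.43 and 7.52 in smo-1 RNAi, 9.27 and 8.71 in sdc-2(y93)+RNAi and 8.48 and 8.53 in control embryos. The genes fox-1, sex-1 and ceh-39 are X-linked, as is their target xol-1, which was above control in both groups. Its levels were 7.88, 8.11 and 7.90 in smo-1 RNAi, 8.78, 9.17 and 8.76 in sdc-2(y93)+RNAi and 6.95, 6.80 and 7.09 in control embryos (-0.94 ± 0.13, limma adjusted p = 0.00025). This xol-1 probe set may bind related transcripts, and another one, dimmer, gave -0.16 ± 0.08 (limma, with p adjusted across probe sets, 0.16).

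The dosage compensation complex had 6 lower and 0 higher of 10 measured genes, with a median of -0.34. All 10 were above the median level, where 30.8% of genes were lower. The subunit gene capg-1 read 10.98, 10.83 and 10.79 in smo-1 RNAi, 11.48, 11.58 and 11.61 in sdc-2(y93)+RNAi and 11.15, 11.12 and 11.13 in control embryos (-0.69 ± 0.09, limma adjusted p = 0.00011). The specific condensin subunit gene dpy-27 read 9.71, 9.73 and 9.80 in smo-1 RNAi, 10.44, 10.28 and 10.36 in sdc-2(y93)+RNAi and 10.95, 10.83 and 10.92 in control embryos (-0.61 ± 0.08). With these probe sets dpy-27 was below control in both groups, while capg-1 lay on opposite sides. A dimmer capg-1 probe set put both groups below control (8.89 in smo-1 RNAi, 9.33 in sdc-2(y93)+RNAi and 9.60 in control embryos). A dimmer one of dpy-27 had means of 7.18, 7.57 and 7.28 in that order (difference -0.39, limma adjusted p = 0.17 over all probe sets). Also lower were dpy-28 (-0.47 ± 0.11) and dpy-30 (-0.30 ± 0.09). Without sdc-2(y93)+RNAi replicate 3 the count was 3 lower of 10. Among 8 condensin genes, several shared with that list, 5 were lower and 0 higher, and 8 were lower without sdc-2(y93)+RNAi replicate 2. The condensin II genes capg-2 (-1.11 ± 0.17) and kle-2 (-0.82 ± 0.14) differed most. Of 7 measured SUMO pathway genes, smo-1 included, 3 were lower and 1 higher. The SUMO protease gene ulp-2 was lower (-0.85 ± 0.13), as was aos-1 of the activating enzyme (-0.39 ± 0.10), and the ligase gene gei-17 was higher (0.31 ± 0.10), though not called without any 1 smo-1 RNAi array, sdc-2(y93)+RNAi replicate 1 or control replicate 1.

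The X chromosome as a whole lay lower in smo-1 RNAi, relative to sdc-2(y93)+RNAi embryos, a difference that 6 arrays cannot bring past the threshold. For each array the median deviation of 1380 X-linked genes from the mean of the 6 arrays was set against that of 7152 autosomal genes, all above the median level. This value was -0.09, -0.09 and -0.07 on smo-1 RNAi arrays and 0.04, 0.15 and 0.02 on sdc-2(y93)+RNAi arrays, with means of -0.08 ± 0.01 and 0.07 ± 0.07 (SD, n = 3 each). The groups did not overlap, and their difference of -0.15 had an exact two-sided permutation p of 0.1, the smallest possible here. Over genes of any level the difference was -0.05. By chromosome, mean deviations of autosomes lay between -0.02 and 0.01 in smo-1 RNAi and were at most 0.03 in sdc-2(y93)+RNAi embryos, with overlapping arrays on each. On X they were -0.09 in smo-1 RNAi and 0.09 in sdc-2(y93)+RNAi embryos.

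**Figure D4:**
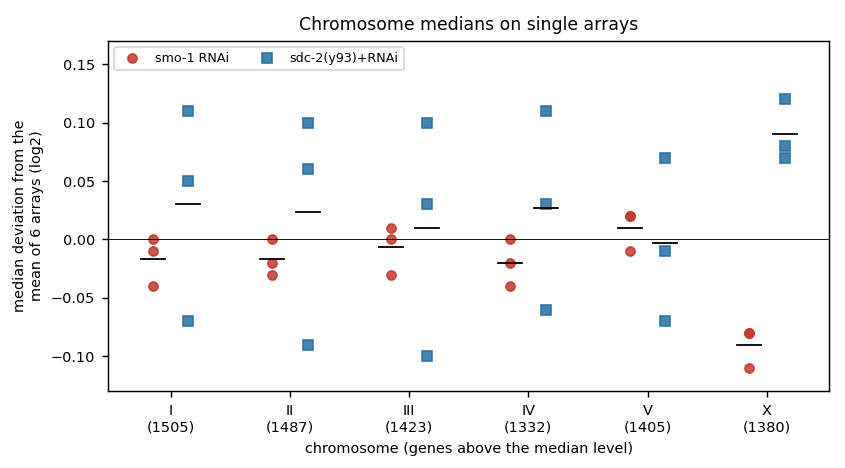
Median log2 deviation of the genes of each chromosome (x axis, genes above the median level in brackets) from their mean over the 6 arrays, on single smo-1 RNAi arrays (circles) and sdc-2(y93)+RNAi arrays (squares). Horizontal bars are means of 3 arrays. The groups are apart on X, at means of -0.09 and 0.09, and overlap on each autosome.

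Single X-linked genes went both ways. Of 2353, 445 were higher (18.9%) and 632 lower (26.9%), and by 2-fold or more 151 were higher and 137 lower (6.42% and 5.82%). On autosomes the corresponding shares were 6.26% and 2.30%. The 632 lower X genes had a median of -0.19 against control in smo-1 RNAi and 0.54 in sdc-2(y93)+RNAi embryos. The 445 higher X genes had medians of 1.16 and 0.30. A total of 275 X-linked genes (11.7%) were called lower with group means on opposite sides of all control arrays, and 40 (1.70%) higher in that way. On autosomes these shares were 5.07% and 5.66%. Besides mom-1 and F52D2.7, the lower X genes with the smallest adjusted p were T14F9.2 (-1.80 ± 0.09) and R04E5.9 (-1.68 ± 0.09), both on opposite sides of control. R04E5.9 read 8.60, 8.52 and 8.60 in smo-1 RNAi, 10.13, 10.35 and 10.30 in sdc-2(y93)+RNAi and 9.03, 8.94 and 8.87 in control embryos. The higher X genes with the smallest adjusted p, besides F14H12.3, were C15H9.11 (3.67 ± 0.13), F53A9.8 (3.23 ± 0.12) and C10E2.5 (2.80 ± 0.10). C10E2.5 read 8.47, 8.70 and 8.34 in smo-1 RNAi, 5.70, 5.73 and 5.68 in sdc-2(y93)+RNAi and 5.56, 5.67 and 5.64 in control embryos, so that only smo-1 RNAi stood apart. Dim second probe sets gave 0.39 for C10E2.5 and -0.11 for R04E5.9. F53A9.8, from a probe set open to related transcripts, was above control in both groups, by 5.14 in smo-1 RNAi and 1.91 in sdc-2(y93)+RNAi embryos. So was the X-linked aminotransferase gene bcat-1, at 10.99, 11.10 and 11.07 in smo-1 RNAi, 9.47, 9.62 and 9.62 in sdc-2(y93)+RNAi and 7.33, 7.37 and 7.28 in control embryos (1.48 ± 0.08, limma adjusted p = 6.2e-07).

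Among chromatin regulators more genes were lower than higher in smo-1 RNAi. Of 28 genes of the NuRD, MEC, heterochromatin and DREAM group 15 were lower and 2 higher (53.6% and 7.14%), with a median of -0.47. The number higher was 0 without smo-1 RNAi replicate 3 and 1 without smo-1 RNAi replicate 2, sdc-2(y93)+RNAi replicate 2 or control replicate 1. The X-linked remodeller gene chd-3 read 10.48, 10.41 and 10.46 in smo-1 RNAi, 12.01, 11.88 and 11.87 in sdc-2(y93)+RNAi and 11.28, 11.20 and 11.38 in control embryos (-1.47 ± 0.09, limma adjusted p = 7.1e-07, from a probe set open to related transcripts). The heterochromatin protein gene hpl-1 (-0.91 ± 0.14), the histone methyltransferase gene set-2 (-0.86 ± 0.11) and egl-27 (-0.59 ± 0.09) were lower as well. Hox and Polycomb-related genes gave 7 lower of 13 and 0 higher (1 higher without sdc-2(y93)+RNAi replicate 1), led by mes-3 of the Polycomb repressive complex (-1.18 ± 0.10) and the posterior Hox gene nob-1 (-0.85 ± 0.16), of which a dim second probe set gave 0.11. Of 60 ceh homeobox genes 24 were lower and 3 higher (6 higher without sdc-2(y93)+RNAi replicate 2), with ceh-20, the Extradenticle homologue, at -1.21 ± 0.10 and X-linked ceh-21 at -1.46 ± 0.10 (-0.07 with a second, dimmer probe set). Of 254 nuclear hormone receptor genes 32 were higher and 33 lower, and 18 and 103 with centring on autosomal genes. The gene nhr-11 read 8.96, 9.60 and 9.26 in smo-1 RNAi, 7.0, 6.85 and 6.71 in sdc-2(y93)+RNAi and 7.92, 7.95 and 7.57 in control embryos (2.42 ± 0.16), on opposite sides of control. It differed most among the named receptors.

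Ribosomal and metabolic genes were slightly higher in smo-1 RNAi, while their medians lay below control in sdc-2(y93)+RNAi embryos. Of 76 cytosolic ribosomal protein genes 37 were higher and 1 lower (48.7% and 1.32%), but by a median of only 0.25. Their median against control was -0.02 in smo-1 RNAi and -0.28 in sdc-2(y93)+RNAi embryos. The gene rps-27A read 12.88, 12.91 and 12.85 in smo-1 RNAi, 12.39, 12.30 and 12.43 in sdc-2(y93)+RNAi and 13.17, 13.24 and 13.17 in control embryos (0.51 ± 0.08, limma adjusted p = 0.0005). It was below control in both groups. With centring on autosomal genes 6 were higher and 4 lower. Mitochondrial ribosomal protein genes gave 25 higher of 59 and 0 lower (5 lower without sdc-2(y93)+RNAi replicate 2), with a median of 0.27, and medians against control of -0.29 in smo-1 RNAi and -0.58 in sdc-2(y93)+RNAi embryos. Among them mrpl-41 read 9.23, 9.55 and 9.26 in smo-1 RNAi, 8.42, 7.84 and 8.38 in sdc-2(y93)+RNAi and 9.44, 9.55 and 9.52 in control embryos (1.13 ± 0.15, limma adjusted p = 0.00019). Respiratory chain and ATP synthase genes gave 15 higher of 49 and 2 lower, with cox-17 (1.00 ± 0.16) and cox-6C (0.71 ± 0.12) among the higher. The number higher was 7 without smo-1 RNAi replicate 3, and the number lower 1 without smo-1 RNAi replicate 1 or sdc-2(y93)+RNAi replicate 1 or 3. Centring on autosomal genes gave 4 higher and 7 lower and turned the median of 0.17 to -0.02.

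Central metabolism followed. Of 41 glycolysis and TCA cycle genes 20 were higher and 6 lower, among them ldh-1 (1.17 ± 0.12), pgk-1 (0.95 ± 0.11) and ogdh-1 (0.92 ± 0.10). With centring on autosomal genes these counts were 13 and 12. The mitochondrial malate dehydrogenase gene mdh-2 was higher by 1.08 ± 0.08 with its brightest probe set, of a kind open to related transcripts, but gave -0.11 with another (limma adjusted p = 0.78). Of 19 genes of branched-chain amino acid and propionate breakdown 8 were higher and 3 lower, led by bcat-1, acdh-9 (1.41 ± 0.15) and alh-8 (1.07 ± 0.09). The methionine synthase gene metr-1 was lower (-0.96 ± 0.12). The propionate shunt gene acdh-1, chosen after its values were seen, did not pass (2.46 ± 0.90, limma adjusted p = 0.057), since 1 smo-1 RNAi array was at 10.77 and the others at 6.10 and 6.82, against 5.45, 5.32 and 5.54 in sdc-2(y93)+RNAi embryos. Glutathione transferase genes gave 17 higher of 42 and 1 lower (0 lower without smo-1 RNAi replicate 1 or 2, or sdc-2(y93)+RNAi replicate 1 or 3), led by gst-24 (1.76 ± 0.09) and gst-5 (2.36 ± 0.23). Fatty acid genes gave 10 higher and 5 lower of 43 (23.3% and 11.6%), with a median of 0.05 that turned negative under both centrings. Of the 43, 29 lay above the median level, and fat-6, a stearoyl desaturase gene, was higher by 2.32 ± 0.26. V-ATPase genes gave 5 higher and 1 lower of 19 (26.3% and 5.26%), led by vha-7 (1.95 ± 0.10). Their median of 0.08 turned to -0.12 with centring on autosomal genes, and all 19 lay above the median level. The higher shares of both lists are near the 25.2% of genes above the median level.

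Stress and protein turnover lists went different ways. The chaperone gene hsp-1, an abundant Hsp70, read 13.36, 13.20 and 13.27 in smo-1 RNAi, 11.85, 11.88 and 12.21 in sdc-2(y93)+RNAi and 12.94 ± 0.08 (SD, n = 3) in control embryos (1.3 ± 0.11, limma adjusted p = 8.2e-06). It lay above control in smo-1 RNAi and well below it in sdc-2(y93)+RNAi embryos. Of 52 chaperone genes 5 were higher (3 without replicate 2 of either group) and 18 lower, including dnj-17 (-1.04 ± 0.10). The lower share of 34.6% is near the 30.8% of genes above the median level. Among 12 small heat shock genes 5 were higher and 1 lower (0 lower without smo-1 RNAi replicate 3 and 2 without sdc-2(y93)+RNAi replicate 2), with hsp-17 (2.42 ± 0.18) and hsp-43 (2.05 ± 0.12) near control in sdc-2(y93)+RNAi embryos. Ubiquitin conjugation and cullin genes gave 7 higher and 18 lower of 40, with cul-6 (1.29 ± 0.15) and uev-1 (0.72 ± 0.08) among the higher. Proteasome genes gave 2 higher and 3 lower of 33. There were 9 lower without sdc-2(y93)+RNAi replicate 2, 0 lower without replicate 1 or 3 of that group and 1 lower without smo-1 RNAi replicate 1 or 2. F-box genes gave 53 higher and 86 lower of 310 (34 and 155 with centring on autosomal genes), with fbxa-197 (2.36 ± 0.13) and fbxb-116 (-1.67 ± 0.11) as examples. BTB and MATH genes gave 23 higher and 11 lower of 103, with 18 lower without sdc-2(y93)+RNAi replicate 2. Of these btb-19 read 9.63, 9.49 and 9.62 in smo-1 RNAi, 7.15, 6.88 and 7.09 in sdc-2(y93)+RNAi and 7.15, 7.10 and 7.23 in control embryos (2.54 ± 0.10, limma adjusted p = 5.2e-08). Cytochrome P450 genes gave 9 higher and 7 lower of 73, UDP-glucuronosyl transferase genes 8 higher and 17 lower of 64, and translation factor and tRNA synthetase genes 11 higher and 17 lower of 69 (7 higher without smo-1 RNAi replicate 2).

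**Figure D5:**
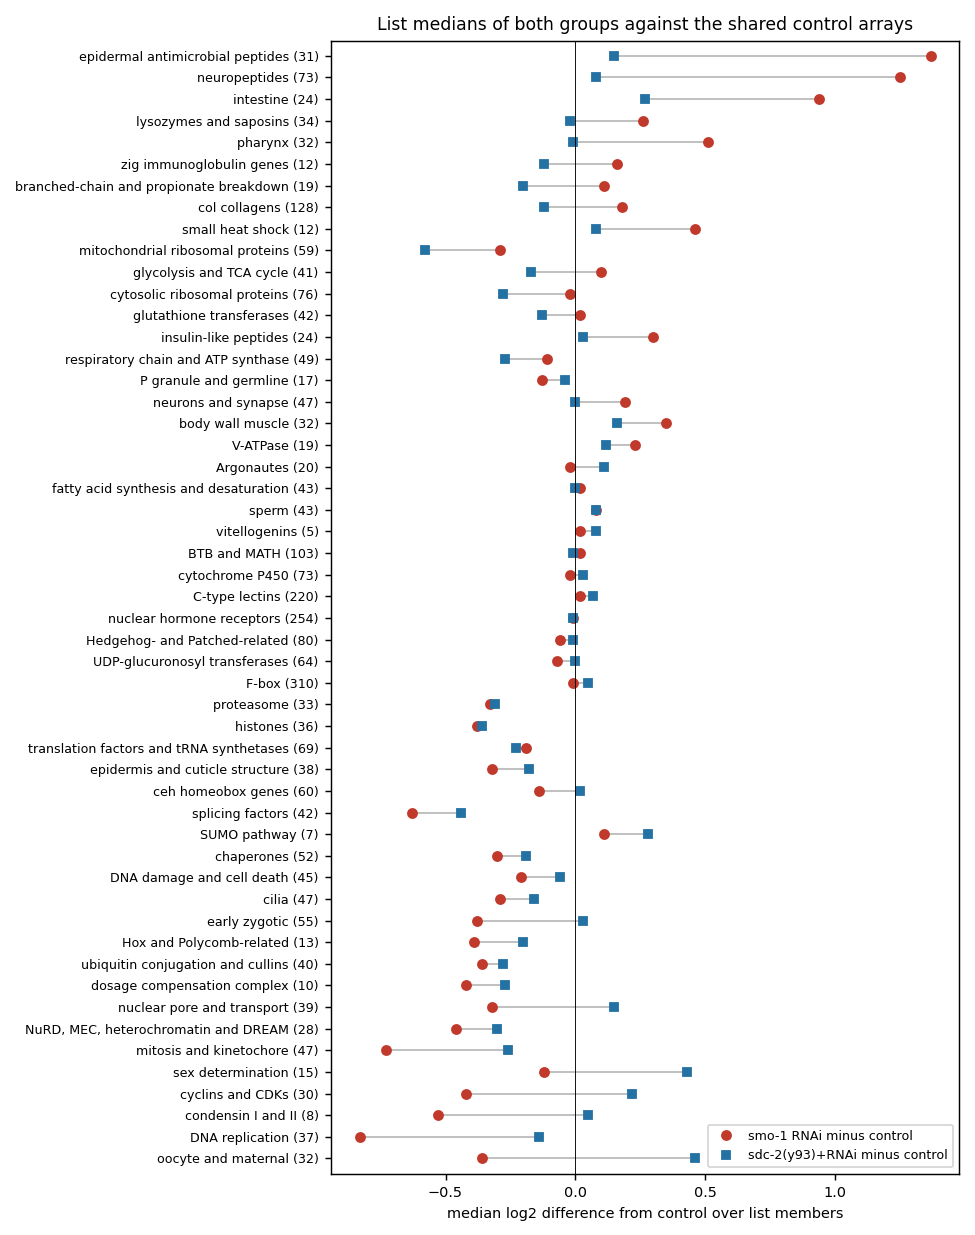
Median log2 difference from control (x axis) over the measured members of each list, for smo-1 RNAi (circles) and sdc-2(y93)+RNAi (squares), with lists ordered by the median of the direct difference. Both groups are set against the same 3 control arrays. Neuropeptides lie at 1.25 in smo-1 RNAi and 0.08 in sdc-2(y93)+RNAi, and oocyte and maternal genes at -0.36 and 0.46.

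Set against control, the lists fell into several arrangements. Neuropeptides (medians of 1.25 in smo-1 RNAi and 0.08 in sdc-2(y93)+RNAi), epidermal antimicrobial peptides (1.37 and 0.15) and pharynx (0.51 and -0.01) departed from control mainly in smo-1 RNAi. Oocyte and maternal genes (-0.36 and 0.46), cyclins (-0.42 and 0.22), nuclear pore genes (-0.32 and 0.15) and sex determination genes (-0.12 and 0.43) lay on opposite sides of it. DNA replication (-0.83 and -0.14) and mitosis genes (-0.73 and -0.26) had medians below control in both groups, farther below in smo-1 RNAi. Their summed levels on sdc-2(y93)+RNAi arrays overlapped those on control arrays. These were 14.90 to 15.21 against 14.93 to 15.36 for replication and 15.41 to 15.59 against 15.44 to 15.75 for mitosis. Splicing factors (-0.63 and -0.44) and histones (-0.38 and -0.36) were below control in both groups with close medians. Of the 52 list medians of the direct difference, 9 changed sign under at least 1 other scaling, namely those of P granule, Argonaute, sperm, muscle, neuron, insulin-like, fatty acid, respiratory chain and V-ATPase genes.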

How the data were processed

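Affymetrix C. elegans arrays of mixed-stage embryos were used. The deposited values are log2 levels. The submitters' processing notes name RMA and Affymetrix Expression Console. The genome build of the array annotation is not stated in these sources. RMA subtracts a background, forces arrays to 1 distribution and compresses dim signals, so a shift shared by most genes can be moved between genes. Probe sets named for exactly 1 gene by GEO's platform annotation numbered 20766 of 22625, after leaving out 77 control probe sets, 887 with several genes and 895 not named. All 20766 were kept, and 20701 of them were matched to RefSeq (WBcel235), which gave the chromosome. The brightest per gene was used. A model over the 3 groups of 3 arrays was fitted with limma 3.58.1 in R 4.3.3 (6 residual degrees of freedom), with Benjamini-Hochberg adjustment over 17118 genes and a threshold of 0.05. On simulated data of 17118 genes, 200 of them changed, 88% of genes changed by 1 (log2) and 33% of those changed by 0.5 were called, with 9 of 16918 unchanged genes called. In the data 6101 genes were called, so the adjustment was stricter in the simulation. Its noise was also independent between genes. These shares therefore do not give the sensitivity or the false calls of the fit to the data.

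Named genes were the checked genes, the 12 highest and 12 lowest called genes whose arrays did not overlap between the groups compared, 4 genes on X per direction by adjusted p, the 6 called genes in each direction with the largest difference and group means on opposite sides of all control arrays, and up to 4 called genes per list by adjusted p (up to 2 where none was called). Any other member named was chosen after its values were seen. The members, the 52 lists and the tests were chosen with earlier results of these data known. Lists are described by counts and medians, with no test of a list. Alternatives were other scalings, a minimum fold, leaving out probe sets of related kinds, dim genes and single arrays, and the replicate number as a block.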

Additional observations from a re-analysis of the deposited data

Results flagged for a closer look

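Spiked hybridisation controls, which are no worm genes and enter no comparison, were bright on the sdc-2(y93)+RNAi arrays only. Their log2 level on those arrays was above that on control arrays by 1.77 for bioB, 2.78 for bioC, 4.74 for bioD and 7.22 for cre. On smo-1 RNAi arrays they were at the level of control arrays, with means of 5.17 for bioB and 4.95 for cre in smo-1 RNAi, against 5.26 and 5.10 in control embryos. The handling of the sdc-2(y93)+RNAi arrays and the group cannot be told apart, and its part in the differences above was not tested.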

How the results depend on the processing

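The 6101 calls (3154 higher, 2947 lower) ranged from 5243 to 6799 when single arrays were left out, with 2706 to 3371 higher and 2466 to 3428 lower. Requiring a minimum fold of 1.5 left 1449 calls, 993 higher and 456 lower. Centring on autosomal genes gave 6405 lower. Of 234 named genes 166 kept their direction and their side of the threshold under every alternative run for them, and 2 reversed, spd-5 (-0.30) and mdh-2 (-0.11), once probe sets of related kinds were left out; the cause was not tested. For 70 named genes with 83 other probe sets, 75 of these had the same sign and 0 had the opposite sign and a call. This covers the direct difference only, and not the side of control on which a group lay. The X minus autosome difference of -0.15 lay between -0.12 and -0.18 without single arrays and at -0.05 over genes of any level. Replicate numbers did not pair the arrays: deviations of same-numbered arrays from their group means correlated at 0.07, -0.22 and 0.16, and the fit with a replicate block gave 6084 calls (3143 higher, 2941 lower) and an X difference of -0.15 (exact permutation p = 0.25). Counts on the minor side of many lists moved by over 1.5 times without single arrays, as given beside them. The compression of dim signals limits fold changes of weak genes.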

Other observations

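Detoxification genes, described above only as counts, held single members that differed by more than 2-fold. The P450 gene cyp-14A5 read 8.05, 7.82 and 8.15 in smo-1 RNAi, 5.98, 6.15 and 6.33 in sdc-2(y93)+RNAi and 5.41, 5.29 and 5.25 in control embryos (1.86 ± 0.12). All 3 groups were apart, with a probe set open to related transcripts. The glucuronosyl transferase gene ugt-31 was higher by 2.14 ± 0.15 and near control in sdc-2(y93)+RNAi embryos (-0.02), while X-linked ugt-57 was lower (-1.21 ± 0.10) and on opposite sides of control. Another P450 gene, cyp-32A1, was above control in both groups, by 3.08 in smo-1 RNAi and 2.02 in sdc-2(y93)+RNAi embryos.

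Nuclear receptors and homeobox genes held members on either side. The receptor gene nhr-57 was higher by 1.85 ± 0.16 and nhr-46 lower (-1.2 ± 0.10). The homeobox gene ceh-74 read 9.51, 9.79 and 9.93 in smo-1 RNAi, 8.40, 8.10 and 8.36 in sdc-2(y93)+RNAi and 8.92, 8.94 and 8.90 in control embryos (1.45 ± 0.12), the opposite order to ceh-20 with its brighter probe set. Of Hedgehog-related genes ptr-12 (2.27 ± 0.12) and X-linked grl-6 (2.0 ± 0.12) were near control in sdc-2(y93)+RNAi embryos, by 0.25 and 0.05. The histone genes his-37 (1.38 ± 0.11) and hil-2 (-0.87 ± 0.10) went opposite ways. All values are log2 differences, smo-1 RNAi minus sdc-2(y93)+RNAi, with the standard error of the limma fit.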
